A study of Mus musculus with 54 samples.

Results

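The genes described here are the mouse zinc finger protein genes numbered Zfp400 to Zfp999, a stretch of the Zfp numbering that holds many genes of the Krüppel-associated box (KRAB) zinc finger family. They were chosen by symbol alone: every gene annotated with a symbol from Zfp400 to Zfp999, read on its brightest probe set over all arrays. That gave 191 genes of the 18193 genes named on the array, and 99 of them had 1 probe set while 92 had several. The rule used names and overall brightness and no comparison between strains, but this stretch of numbers was picked for description with earlier results of these data known.

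The study measured RNA on Affymetrix arrays in whole hippocampus, striatum and brainstem of male mice of 6 inbred strains (C57BL6/J, C57L/J, BalbC/J, C57BLKS/J, C3H HeJ and C57BL10/J) in relation to prepulse inhibition, the damping of a startle response by a weaker sound just before it. There were 54 arrays, 18 per tissue and 3 per strain and tissue, each of tissue pooled from 3 mice. Within each strain and tissue 1 array was of mice tested for prepulse inhibition from postnatal day 50 and 2 were of untested mice, and all mice were killed at postnatal day 60. No animal carried an engineered allele or received a drug according to the labels. With 12 mice per strain, 6 of them tested, pools of different tissues must share mice, and the labels do not say which.

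Zinc finger proteins of this kind bind DNA through tandem fingers, each of which contacts a few bases. In the KRAB members the KRAB domain recruits the co-repressor Trim28, which brings the histone methyltransferase Setdb1 and heterochromatin proteins to the bound site. Many such proteins silence retroelements. Their genes lie in tandem clusters that have expanded and diverged quickly, so neighbours are often close relatives. Members without a KRAB domain include regulators of neural development and proteins with roles in ribosome assembly.

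One pair of neighbours shows how closely such genes can be packed, and both belong to the group of chromosome 17 genes described below that were lower in BalbC/J and C57BLKS/J in all 3 tissues. Zfp758 and Zfp944 are transcribed in opposite directions, and their start windows, from 250 bases before the start to 50 bases from it on, overlap by 162 bases in RefSeq's GRCm38.p6 assembly. The window of Zfp758 is chr17:22361213-22361512 on the plus strand and that of Zfp944 is chr17:22361351-22361650 on the minus strand. Capitals mark the E-box CACGTG, a single palindromic site that both windows contain, at base 212 of the Zfp758 window and base 222 of the Zfp944 window.
Zfp758: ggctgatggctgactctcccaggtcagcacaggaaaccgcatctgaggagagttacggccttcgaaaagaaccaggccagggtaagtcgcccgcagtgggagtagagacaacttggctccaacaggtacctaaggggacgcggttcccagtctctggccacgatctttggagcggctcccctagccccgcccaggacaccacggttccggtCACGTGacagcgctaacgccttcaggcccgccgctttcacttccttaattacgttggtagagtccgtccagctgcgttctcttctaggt
Zfp944: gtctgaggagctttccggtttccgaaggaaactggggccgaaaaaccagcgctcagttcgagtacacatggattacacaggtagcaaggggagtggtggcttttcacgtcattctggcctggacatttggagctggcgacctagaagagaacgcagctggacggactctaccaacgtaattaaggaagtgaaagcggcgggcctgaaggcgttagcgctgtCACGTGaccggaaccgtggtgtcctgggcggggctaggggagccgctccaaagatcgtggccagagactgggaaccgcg

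These windows hold 20 and 22 CG dinucleotides. Over the 190 start windows of 156 of the 191 members the median was 15.5, against 7 over all 32851 windows of 27025 genes. That is a larger set than the 18193 genes named on the array. The kinds of gene in it were not matched to the members. The E-box CACGTG, searched on both strands, was in 7.37% of member windows and 7.15% of all windows. The letters CCGGAAG, a core bound by ETS factors, were in 17.4% of member windows and 8.86% of all windows, and TGACGTCA, the cyclic AMP response element, in 3.68% and 1.79%. CCATCTT, part of the YY1 motif, was in 8.42% and 6.34%, and the palindromic NRF1 motif in 2.63% and 0.971%. The SP factor letters GGGGCGGGG were in 8.42% of member windows and 11.4% of all windows. These matches are descriptions of letters and were not tested as binding sites.

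Most members were measurable in the brain, at moderate levels. Testing in a tissue required a deposited log2 level over the 40th percentile of the array for 3 or more of its 18 arrays. Of the members, 164 passed in hippocampus (85.9%, against 67.7% of all genes). The striatal count was 165 (86.4% against 67.7%) and the brainstem count 164 (85.9% against 68.6%). Over all arrays, 150 members were above that percentile on every array and 21 on none. The median level of the members that passed was 7.94 in hippocampus, 7.66 in striatum and 7.69 in brainstem, below the medians of 9.08, 8.80 and 9.02 for all genes that passed. The brightest member was Zfp445, a KRAB protein that takes part in imprint maintenance, at 12.84, 12.73 and 12.56 in hippocampus, striatum and brainstem. Zfp871, Zfp931, Zfp644 and Zfp664 followed. Levels are of different probe sets and do not rank the genes by transcript number.

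Before the strain results, 4 arrays stood apart. In brainstem, untested array 2 of C3H HeJ was at 13.01 (mean log2 level) for cerebellar markers, 3.23 above the tissue median. The first untested BalbC/J arrays of hippocampus and striatum were 2.94 and 3.92 above their tissue medians for choroid plexus markers. The tested C57L/J striatum array correlated best with arrays of other strains, and its mean correlation with its own strain was 0.988. That of the second untested C57L/J striatum array was 0.989. This array also had the highest hippocampal markers in striatum, 0.54 above the tissue median, and is not counted among the 4. The defining markers of each labelled tissue were highest in that tissue. The part of these arrays in the results was not tested. Counts of the strain test, the contrasts and the strain by tissue test without the 4 arrays are given below.

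Between 32.1% and 34.8% of the tested members differed among the 6 strains. The share of all genes that differed was lower in each tissue, by the least in hippocampus, and the differences between these shares were not tested. In hippocampus 57 of 164 members (34.8%) passed limma's F test over strains at a Benjamini-Hochberg adjusted p under 0.05, against 31.2% of all genes tested. In striatum 53 of 165 (32.1%) passed against 26.2%, and in brainstem 54 of 164 (32.9%) against 23.0%. Without the BalbC/J arrays with choroid plexus signal, 50 passed in hippocampus (30.5%, against 25.6% of all genes) and 52 in striatum (31.5% against 22.6%). Without the C57L/J array 59 passed in striatum (35.8% against 34.3%), and without the C3H HeJ array with cerebellar signal 66 passed in brainstem (40.2% against 37.7%). After each array was centred on its median, 49, 48 and 47 members passed in hippocampus, striatum and brainstem, against 22.0%, 21.4% and 22.0% of all genes. On the untested arrays alone, 2 per strain, 23 members passed in brainstem, against 8.65% of all genes. The 114 genes Zfp1 to Zfp399 had similar shares, in the same order 34 of 98 tested (34.7%), 33 of 94 (35.1%) and 36 of 97 (37.1%).

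Differences over 2-fold among the strains were found for 16 to 23 members per tissue. A range of strain means over 1 on the log2 scale, which is over 2-fold, together with a passed test was found for 16 members in hippocampus (9.76%, against 4.94% of all genes), 23 in striatum (13.9% against 6.62%) and 17 in brainstem (10.4% against 4.76%). Without the 4 arrays that stood apart the counts were 18 (11% against 4.99%), 25 (15.2% against 9.54%) and 19 (11.6% against 5.06%), and these shares too were not tested against each other. The tested members had a median range of 0.32, 0.40 and 0.33 in hippocampus, striatum and brainstem, against 0.27, 0.36 and 0.30 over all genes. Members were dimmer than most genes, so the shares were also taken within 3 equal bins of the level. In the middle bin 40.8% of members passed in hippocampus against 36% of genes, 40% against 29.3% in striatum and 38.7% against 25% in brainstem. In the lower bin the member shares were 29.1%, 23.4% and 27.6%, against 19.1%, 16.8% and 15.2% of genes. In the upper bin there were 14, 18 and 15 members, of which 5, 7 and 6 passed (35.7%, 38.9% and 40%, against 38.4%, 32.5% and 28.8% of genes), so the hippocampal share was below that of all genes there. Without the 4 arrays that stood apart, the middle-bin shares were 33.8%, 40.0% and 45.2%, against 29.5%, 32.9% and 40.8% of genes. The lower-bin shares were then 27.8%, 29.9% and 32.2%, against 16.5%, 19.8% and 22.0%. The upper-bin shares were 28.6%, 44.4% and 66.7%, against 30.7%, 38.6% and 50.2%.

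**Figure D1:**
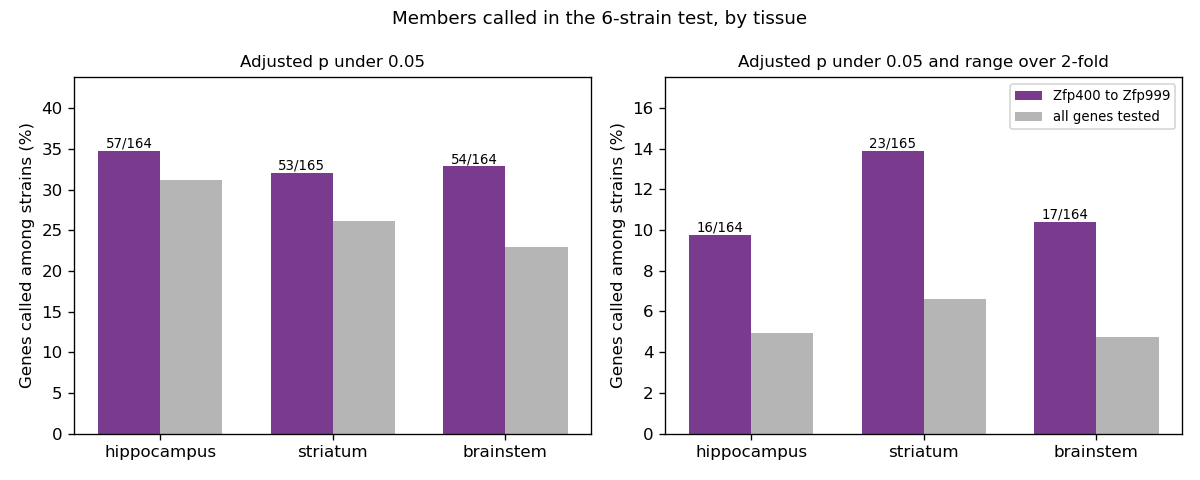
Percent of genes that passed the 6-strain test in each tissue, for Zfp400 to Zfp999 (purple, with called over tested above each bar) and all genes tested (grey), at an adjusted p under 0.05 (left) and with a range over 2-fold as well (right). The purple bars lie above the grey bars in every tissue, by the least in hippocampus on the left (34.8% against 31.2%).

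In at least 1 tissue 90 members passed, and 28 of the 159 tested in all 3 tissues passed in each (17.6%, against 9.26% of 11605 genes). Without the 4 arrays that stood apart 28 also passed in each, against 11.3% of genes. A further 18 passed in exactly 2 tissues and 44 in exactly 1, while 70 that were tested everywhere passed nowhere. The matching shares of all genes were computed only for passing in all 3 tissues, so the other counts describe the members alone. C3H HeJ had the highest mean for 22 of 57 hippocampal member calls (38.6%, against 21.8% of all called genes), 27 of 53 striatal (50.9% against 44.2%) and 16 of 54 brainstem calls (29.6% against 24.3%). Without the C3H HeJ array with cerebellar signal it was highest for 15 of 66 in brainstem (22.7%, against 24.6% of all called genes). BalbC/J was then highest for 18 of the 66 (27.3% against 27.2%), so both shares were close to those of all genes.

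Zfp458 had the widest strain difference in striatum and was brightest in BalbC/J in all 3 tissues. In striatum its 3 arrays read 9.46, 9.50 and 9.33 in BalbC/J, 7.50, 7.48 and 7.66 in C3H HeJ and 5.55, 5.56 and 5.45 in C57BL6/J (the order is always tested, untested 1, untested 2). Neither BalbC/J nor C3H HeJ overlapped any other strain there. The difference of BalbC/J from C57BL6/J was 3.02 ± 0.17 (SE) in hippocampus (adjusted p = 9.16e-09), 3.91 ± 0.16 in striatum (adjusted p = 1.82e-09) and 2.69 ± 0.27 in brainstem (adjusted p = 1.37e-05). For C3H HeJ it was 0.69 ± 0.17, 2.02 ± 0.16 and 0.69 ± 0.27, which passed in hippocampus and striatum and missed in brainstem (adjusted p = 0.092). The gene lies on chromosome 13 in a run of 10 neighbouring members.

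Zfp939, on chromosome 7, was the reverse, low in C3H HeJ and BalbC/J. Its hippocampal arrays read 6.17, 5.00 and 6.05 in C3H HeJ and 6.79, 7.28 and 6.62 in BalbC/J. In C57BL6/J they read 8.89, 9.29 and 9.09. All 12 arrays of the other strains were above all 6 of these in each tissue. The difference from C57BL6/J was -3.35 ± 0.24 in hippocampus, -3.46 ± 0.39 in striatum and -2.76 ± 0.26 in brainstem for C3H HeJ. For BalbC/J it was -2.20 ± 0.24, -2.49 ± 0.39 and -1.35 ± 0.26. All passed, with adjusted p from 1.29e-07 to 0.00385.

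Zfp991, on chromosome 4, was low in C3H HeJ and C57L/J. In brainstem the arrays read 6.10, 6.26 and 5.80 in C3H HeJ and 6.38, 6.63 and 6.39 in C57L/J. The C57BL6/J arrays read 8.39, 8.56 and 8.46, and the low strains did not overlap any other. The brainstem difference from C57BL6/J was -2.42 ± 0.13 for C3H HeJ (adjusted p = 1.53e-08) and -2.00 ± 0.13 for C57L/J (adjusted p = 2.03e-07). Zfp979, also on chromosome 4 and in the same run of 3 members, was tested in brainstem alone and was lowest in C57L/J there. Its C57L/J arrays read 4.90, 4.22 and 3.19, and the other strains' means lay from 5.91 to 7.23. The range of strain means was 3.13 (adjusted p = 3.08e-05). In hippocampus and striatum Zfp979 averaged 2.91 and 3.06.

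Zfp790 and Zfp420 lie in 1 run on chromosome 7 and were each low in a different strain. Zfp790 read 6.91, 6.82 and 6.72 in BalbC/J hippocampus and 8.71, 8.62 and 8.66 in C57BL6/J, a difference of -1.85 ± 0.10 (adjusted p = 5.92e-09). Its BalbC/J arrays were below those of every other strain in each tissue. Zfp420 read 5.94, 6.09 and 5.47 in C57L/J striatum and 7.73, 7.58 and 7.67 in C57BL6/J, a difference of -1.82 ± 0.18 (adjusted p = 1.52e-05). The C57L/J arrays of Zfp420 were also below all others in hippocampus and brainstem.

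Zfp593, on chromosome 4, encodes a protein of the large ribosomal subunit's assembly and divided the 6 strains evenly. Its hippocampal means were 6.37 ± 0.31 (SD, n = 3) in C57BL10/J, 6.46 ± 0.09 in BalbC/J and 6.69 ± 0.29 in C3H HeJ. The other means were 7.98 ± 0.06 in C57BLKS/J, 8.09 ± 0.18 in C57L/J and 7.77 ± 0.28 in C57BL6/J. The low and high strains did not overlap in hippocampus or brainstem, and in striatum some arrays did. It was the only member lower in C57BL10/J than in C57BL6/J in all 3 tissues, by -1.40 ± 0.18, -1.22 ± 0.22 and -1.48 ± 0.27 (adjusted p = 0.000378, 0.0177 and 0.0114).

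**Figure D2:**
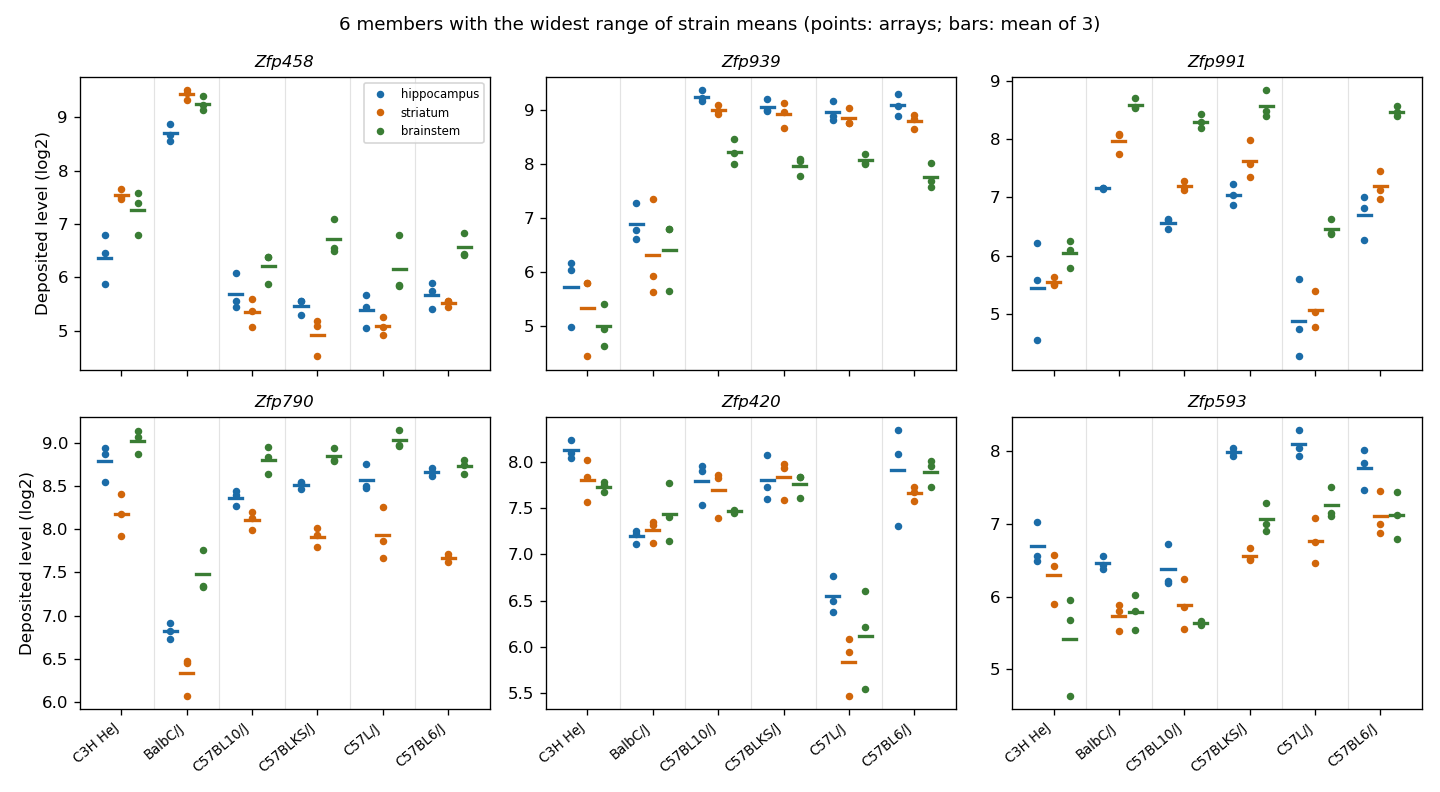
Deposited log2 level of the 6 members with the widest range of strain means averaged over tissues, by strain; points are arrays, short bars are means of 3, and colours are tissues. Each gene has its own vertical scale; Zfp458 is highest in BalbC/J, Zfp939 is low in C3H HeJ and BalbC/J, Zfp790 is low in BalbC/J and Zfp420 in C57L/J.

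Of the 28 members that passed in all 3 tissues, 14 (50%) had the same strains on the same side of the widest gap between strain means in each tissue. Of all 1075 genes that passed in all 3, 519 (48.3%) did, and this division was looked for after the data had been seen. For Zfp839 the C3H HeJ difference from C57BL6/J was -1.14 ± 0.12 in hippocampus, -1.20 ± 0.12 in striatum and -0.96 ± 0.17 in brainstem. For Zfp467 it was 0.90 ± 0.09, 0.99 ± 0.17 and 1.33 ± 0.18, and its BalbC/J means (8.95, 10.13 and 9.35) were close to those of C3H HeJ (8.83, 10.19 and 9.60). Zfp672 was lower in C57BL6/J and C57BL10/J, at 9.10 and 9.18 in hippocampus, than in the other strains, at 9.65 to 9.76. Zfp869 was lower in BalbC/J, C57BLKS/J and C3H HeJ, at 8.99, 9.03 and 9.26 in hippocampus, than in C57BL6/J at 9.68. Zfp612 and Zfp783 also passed in all 3 tissues but were not among the 14, since the strains set apart differed between tissues. Zfp612 was higher in C57L/J than in C57BL6/J by 0.62 ± 0.11 (hippocampus), 0.73 ± 0.17 (striatum) and 0.61 ± 0.11 (brainstem), and all 3 differences passed. Zfp783 was higher in C3H HeJ by 1.11 ± 0.28, 0.53 ± 0.10 and 0.49 ± 0.10 in the same order of tissues, which also passed.

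Some neighbouring members on chromosome 17 shared a division of the strains, though not its direction. A run of 13 members, with at most 5 protein-coding genes between neighbours, reaches from Zfp677 to Zfp945, and all 13 were tested in hippocampus, striatum and brainstem. By tissue, in that order, 8, 7 and 8 of them passed the strain test (31.2%, 26.2% and 23.0% of all genes did), and 6 passed in all 3 (9.26% of all genes). Those 6 had BalbC/J and C57BLKS/J together on one side of the widest gap between strain means in every tissue. Zfp758, Zfp944 and Zfp994 were lower in these strains and Zfp760, Zfp945 and Zfp983 were higher. Of 1075 genes called in all 3 tissues, 11 had this division, and 8 of the 11 were on chromosome 17. Those 8 include the 6 members themselves, and the others on that chromosome were Zfp40 and Tmem242. Dap3, Snapin and 1500004A13Rik were on chromosome 3. The share of all called genes that lie on chromosome 17 was not computed. Neighbouring genes are not independent.

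Zfp758 read 7.37, 7.12 and 7.19 in BalbC/J hippocampus and 7.32, 6.52 and 6.92 in C57BLKS/J. The C57BL6/J arrays read 8.48, 8.61 and 8.66, and no array of the other 4 strains reached down to the low pair in any tissue. The differences from C57BL6/J in hippocampus, striatum and brainstem were -1.36 ± 0.14, -1.56 ± 0.15 and -1.33 ± 0.14 for BalbC/J and -1.66 ± 0.14, -1.48 ± 0.15 and -1.62 ± 0.14 for C57BLKS/J. Zfp944, which shares the start region printed above, had hippocampal means of 8.07 and 7.98 in BalbC/J and C57BLKS/J and 8.55 in C57BL6/J.

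Zfp983 ran the other way. It read 7.88, 7.52 and 7.38 in BalbC/J hippocampus, 7.71, 7.47 and 7.46 in C57BLKS/J and 5.98, 6.37 and 6.25 in C57BL6/J. The BalbC/J difference was 1.39 ± 0.14 in hippocampus and 1.19 ± 0.13 in brainstem, and in striatum it was 0.62 ± 0.18 and missed the threshold (adjusted p = 0.0566). Zfp760 had hippocampal means of 8.81 in BalbC/J and 8.48 in C57BLKS/J against 7.84 in C57BL6/J. Its brainstem call was close to the threshold (range 0.84, adjusted p = 0.035). Between these genes, Zfp820 and Zfp946 had narrow ranges and passed in no tissue.

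**Figure D3:**
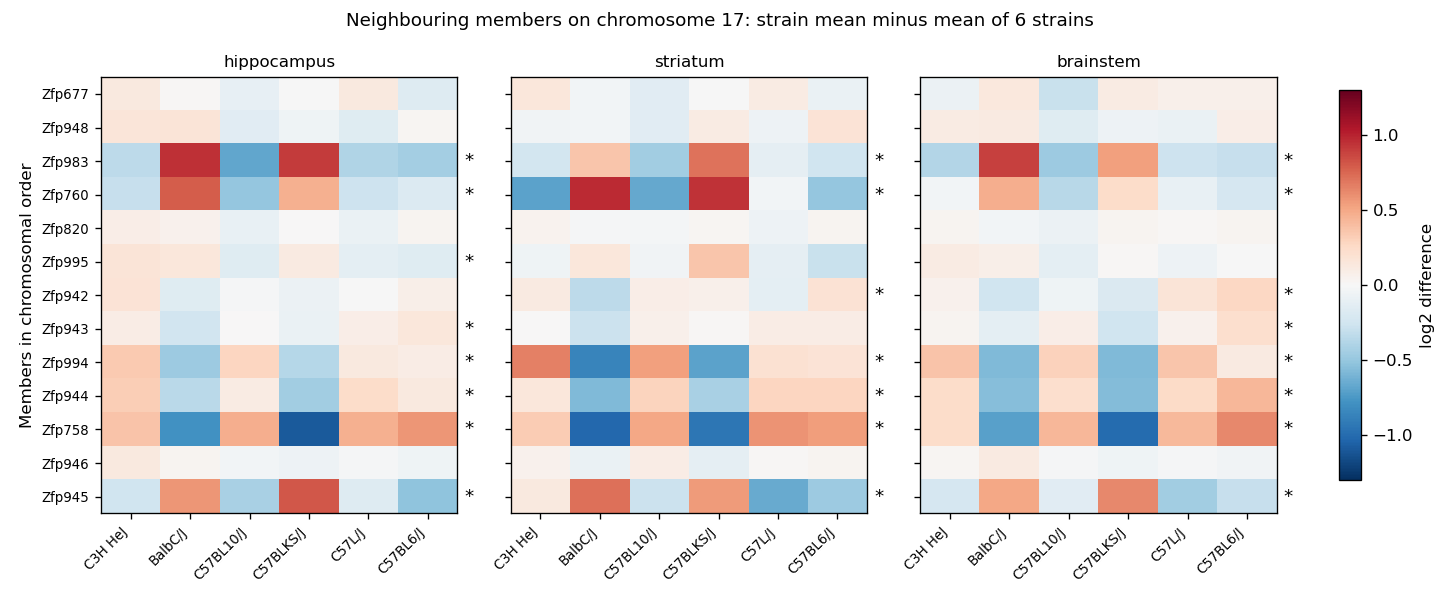
Strain mean minus the mean of the 6 strains (log2, colour) for 13 neighbouring members of chromosome 17 in chromosomal order (rows), by strain (columns) and tissue (panels); a star marks members that passed the strain test in that tissue. BalbC/J and C57BLKS/J are blue together for Zfp994, Zfp944 and Zfp758 and red together for Zfp983, Zfp760 and Zfp945. Values are of the brightest probe sets, and the second probe set of Zfp945 ran the other way in C57BLKS/J hippocampus and striatum.

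A second probe set of the same gene often did not show the difference. Of the members called on their brightest probe set, 20 in hippocampus, 21 in striatum and 24 in brainstem had a second-brightest probe set that could be tested, and it passed for 10, 7 and 7. Both probe sets passed with the same highest and lowest strain for 4, 1 and 0 members. These rates were taken for members only, and the rates over all genes were not computed. In hippocampus Zfp983 was higher in BalbC/J on both, with second-probe-set means of 5.40 in BalbC/J and 3.75 in C57BL6/J. For Zfp458 the second probe set averaged 3.73 in hippocampus and had a range of 0.15 (adjusted p = 0.657). For Zfp790 it averaged 7.17 and had a range of 0.14 (adjusted p = 0.777).

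Zfp945 went in opposite directions on its probe sets. On the brightest, striatal means were 9.19 in BalbC/J and 9.03 in C57BLKS/J, and the other strains lay from 7.82 to 8.60. On the second, the BalbC/J mean was 3.44 against 8.20 in C57BL6/J, and the range over strains was 5.79 (adjusted p = 1.12e-08). Zfp991 was likewise higher in C3H HeJ on its second probe set in brainstem, at 5.57 against 4.05 in C57BL6/J. Zfp939, Zfp758, Zfp839 and Zfp760 had 1 probe set each. The sequences of the probes and of the strains at those probes were not analysed here, so a difference in transcript level and a difference in how a probe binds a strain's RNA cannot be told apart by these arrays.

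**Figure D4:**
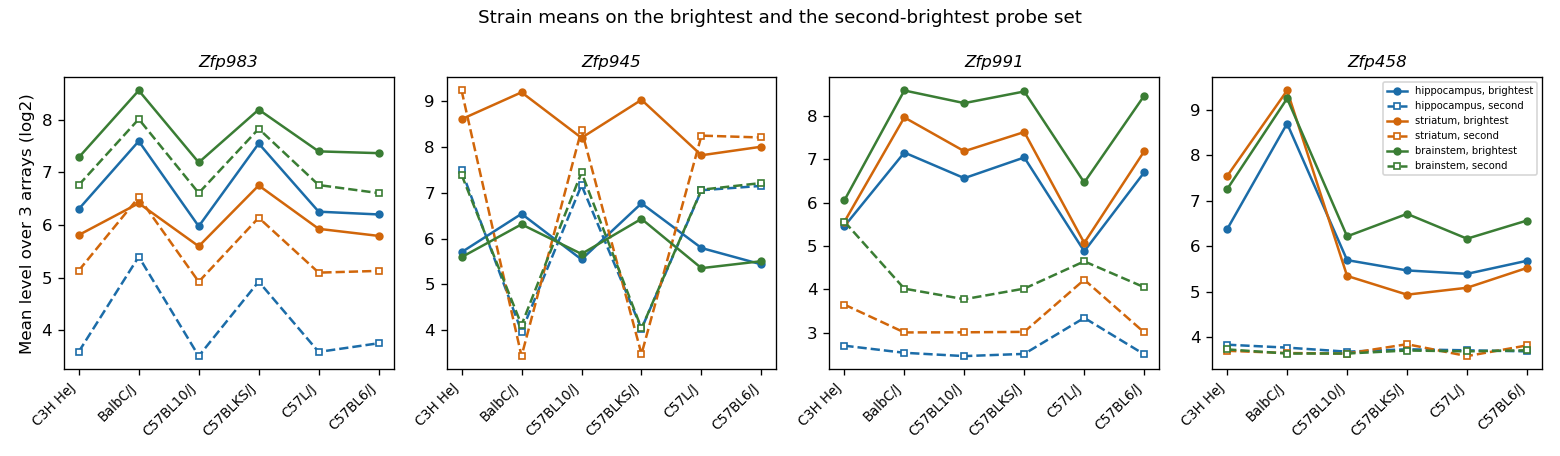
Mean log2 level over 3 arrays by strain on the brightest (solid line, filled) and second-brightest probe set (dashed line, open) of 4 members, by tissue (colour); lines only join the strains of 1 tissue. The probe sets run together for Zfp983, oppositely for Zfp945, and the second is flat for Zfp458.

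More members differed from C57BL6/J, the common reference of the contrasts here, in C3H HeJ and BalbC/J than in the 3 other strains. The same was true of all genes in each tissue, so this order is not particular to the members. All 5 contrasts use the same C57BL6/J arrays, so they are given side by side only, with the percent of all genes called in the same direction in brackets. For C3H HeJ, hippocampus had 15 higher (7.51%) and 12 lower (10.5%), with 18.0% of genes called in all. Its striatum had 28 higher (12.5%) and 7 lower (5.11%) (17.6% in all), and its brainstem 22 higher (11.6%) and 12 lower (7.71%) (19.3% in all). BalbC/J had 11 higher (6.29%) and 22 lower (8.76%) in hippocampus (15.1% in all), and 9 higher (4.16%) and 14 lower (3.51%) in striatum (7.68% in all). In BalbC/J brainstem there were 18 higher (8.46%) and 15 lower (3.83%) (12.3% in all). The brainstem splits depended on scaling: C3H HeJ had 14 higher and 15 lower after quantile normalization and 11 and 16 after median centring, and BalbC/J had 11 and 16 after quantile normalization.

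C57BLKS/J had 5 higher (1.90%) and 9 lower (3.67%) in hippocampus (5.57% in all), or 8 and 7 after quantile normalization. It had 4 higher (1.19%) and 4 lower (0.982%) in striatum (2.18% in all) and 4 higher (1.43%) and 7 lower (1.31%) in brainstem (2.74% in all). The C57L/J counts were 2 higher (1.81%) and 3 lower (2.58%) in hippocampus (4.39% in all) and 2 higher (2.16%) and 3 lower (2.14%) in striatum (4.30% in all). Brainstem of C57L/J had 4 higher (1.92%) and 4 lower (1.36%) (3.28% in all). C57BL10/J had the fewest: 0 higher (0.682%) and 3 lower (1.57%) in hippocampus (2.25% in all) and 0 higher (0.292%) and 1 lower (0.244%) in striatum (0.536% in all). Its brainstem had 2 higher (1.74%) and 4 lower (1.01%) (2.75% in all), or 1 and 4 after median centring. The higher members there were Zfp934 (0.51 ± 0.09) and Zfp771 (0.25 ± 0.06), and Zfp846 (-0.50 ± 0.10) and Zfp931 (-0.40 ± 0.08) were among the lower.

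Several of these counts rested on single arrays. In brackets is the percent of all genes called without the same array. In striatum the C3H HeJ count of 35 was 23 without the second untested C3H HeJ array (13.1%) or the tested C57BL6/J array (13.9%), and 19 without the second untested C57BL6/J array (10.5%). In brainstem the C3H HeJ count of 34 was 19 without the first untested C57BL6/J array (11.3%). Without the C3H HeJ brainstem array with cerebellar signal, the brainstem counts were 35 for C3H HeJ (21.6%), 46 for BalbC/J (25.3%), 18 for C57BL10/J (12.1%), 18 for C57BLKS/J (7.71%) and 12 for C57L/J (9.12%). Without the tested C57BL6/J hippocampus array they were 9 for C57BL10/J (3.48%), 26 for C57BLKS/J (7.54%) and 14 for C57L/J (6.39%) there. The C57L/J striatum count of 5 was 15 without its tested array (15.3%), a fit that keeps the untested array with the highest hippocampal markers. It was 3 without the first untested C57L/J array or either untested C57BL6/J array (at most 2.70%). Without the BalbC/J arrays with choroid plexus signal, the BalbC/J counts were 26 in hippocampus (10.9%) and 24 in striatum (6.03%).

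The small counts moved as much. In hippocampus C57BL10/J had 1 member without its tested array (1.10%), its second untested array (0.731%) or the second untested C57BL6/J array (0.796%). In striatum it had 0 without either of its untested arrays or the first untested C57BL6/J array, with 0.333%, 0.536% and 0.308% of all genes called. In brainstem it had 3 without its tested array (1.25%) and 2 without its first untested array (0.961%) or either untested C57BL6/J array (0.849% and 1.10%). C57BLKS/J had 5 in striatum without either of its untested arrays (1.5% and 1.36%) or the tested C57BL6/J array (1.62%), and 4 without the first untested C57BL6/J array (1.27%). In brainstem it had 7 without its tested array (1.49%), and 6 without its second untested array (1.74%) or either untested C57BL6/J array (1.47% and 1.73%).

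Members with known roles outside retroelement silencing were looked at as a group chosen with earlier results known. Of 5 regulators of neural development (Zfp423, Zfp521, Zfp503, Zfp536 and Zfp462), 3 passed the strain test in each tissue, where 31.2%, 26.2% and 23.0% of all genes did. Of 3 members with roles in ribosome assembly or translation (Zfp593, Zfp598 and Zfp622), 1, 3 and 2 passed. Lists this short say little beside those shares. Zfp423, which is needed for cerebellar midline development, read 10.50, 10.52 and 10.42 in C3H HeJ brainstem, above all arrays of the other strains, and was higher than in C57BL6/J by 1.33 ± 0.09 (adjusted p = 1.43e-07). In hippocampus its difference was 0.77 ± 0.23 (adjusted p = 0.0299), and without the first untested C3H HeJ array it was 0.48 (adjusted p = 0.146). Zfp521 read 10.55, 10.48 and 11.73 in C3H HeJ brainstem and did not pass there (adjusted p = 0.103). For both genes the last of the 3 brainstem values is that of the array with raised cerebellar markers. The part of those markers in either gene's values was not tested.

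Of 6 members known from retroelement or imprint control, 5 were tested (Zfp568 was below the percentile) and 3, 2 and 3 passed in hippocampus, striatum and brainstem, against the same shares of all genes. Zfp445 passed in all 3 with narrow ranges of 0.22, 0.37 and 0.29. Zfp809, which recognises a retroviral primer binding site, passed in hippocampus alone, where C57BLKS/J was lowest at 8.21 ± 0.16 and C57BL6/J was at 8.72 ± 0.24 (adjusted p = 0.046). Of the co-repressor machinery, 24 of 28 listed genes were tested and 7, 8 and 5 passed, beside 31.2%, 26.2% and 23.0% of all genes. Trim28 had a range of 0.52 in striatum (adjusted p = 0.0168) and 0.40 in brainstem (adjusted p = 0.0415), and in hippocampus 0.17 (adjusted p = 0.202). Setdb1 passed in no tissue, with ranges of 0.09 to 0.24.

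Some bright members passed in no tissue on their brightest probe set. Zfp871, Zfp644, Zfp664, Zfp638 and Zfp617 were the brightest of these. The range of strain means of Zfp871 was 0.14, 0.12 and 0.15, and that of Zfp664 was 0.15, 0.13 and 0.09. The second probe set of Zfp871, at 11.10 in hippocampus, passed in all 3 tissues, with a range of 3.18 there (adjusted p = 2.37e-12). Its C3H HeJ mean was 8.64, and the other strains lay from 11.28 to 11.82. The second probe set of Zfp644 passed in hippocampus (range 0.38, adjusted p = 0.0118) and striatum (range 0.70, adjusted p = 0.00168). A missed threshold does not show that the strains were equal.

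Nearly all members differed in level between tissues. In the test over tissues 151 of the 159 members passed (95.0%, against 95.7% of all genes), with the highest level in brainstem for 57, in hippocampus for 56 and in striatum for 38. Zfp697 was highest in hippocampus, at 9.53 against 5.78 in striatum and 6.29 in brainstem. Zfp853 was also highest there, at 5.34 against 3.41 and 3.66, and Zfp811 was at 8.11 against 4.21 and 7.76. Zfp503, a regulator of striatal development, was at 9.88 in striatum and 9.65 in brainstem against 5.31 in hippocampus. Zfp945 was at 8.47 in striatum, with 5.96 in hippocampus and 5.81 in brainstem, and Zfp626 at 5.90 in striatum, with 3.86 and 4.04. Zfp521 was at 10.33 in brainstem, 8.91 in striatum and 6.83 in hippocampus. Zfp618 was at 7.66 in brainstem and 4.43 in hippocampus. The lowest deposited value also differed by tissue, so levels set across tissues carry any difference between their normalizations.

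Strain differences themselves differed between tissues for 20 of 159 members (12.6%, against 18.1% of all genes). After median centring 21 members passed and 13.4% of all genes did, and the difference between the shares was not tested. Without the BalbC/J arrays with choroid plexus signal the counts were 15 (hippocampal array, 16.3% of all genes) and 21 (striatal array, 17%). It was 26 without the C57L/J striatum array (27.2%) and 22 without the C3H HeJ array with cerebellar signal (22.9%). All 20 had passed the strain test in at least 1 tissue, 7 of them in exactly 1, 7 in 2 and 6 in 3. The largest was Zfp458 (adjusted p = 6.41e-05), whose BalbC/J difference was widest in striatum. Zfp566 was lower in BalbC/J striatum, at 5.02 ± 0.12 (SD, n = 3) against 6.05 ± 0.03 in C57BL6/J, while its strain means in brainstem spanned 0.15. Zfp626 was highest in C3H HeJ striatum, at 7.12 ± 0.15 against 5.69 ± 0.23 in C57BL6/J. It averaged 3.86 in hippocampus and 4.04 in brainstem, where the 40th percentile of the arrays was 3.22 to 3.47 and 3.20 to 3.35. The part of such low levels in the differences between tissues was not tested. In striatum Zfp407 was at 9.13 ± 0.17 in C3H HeJ against 8.37 ± 0.17 in C57BL6/J, with hippocampal means of 8.69 and 8.61. Zfp622 was at 11.15 ± 0.06 against 10.60 ± 0.05 in striatum, with hippocampal means of 10.89 and 10.84.

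**Figure D5:**
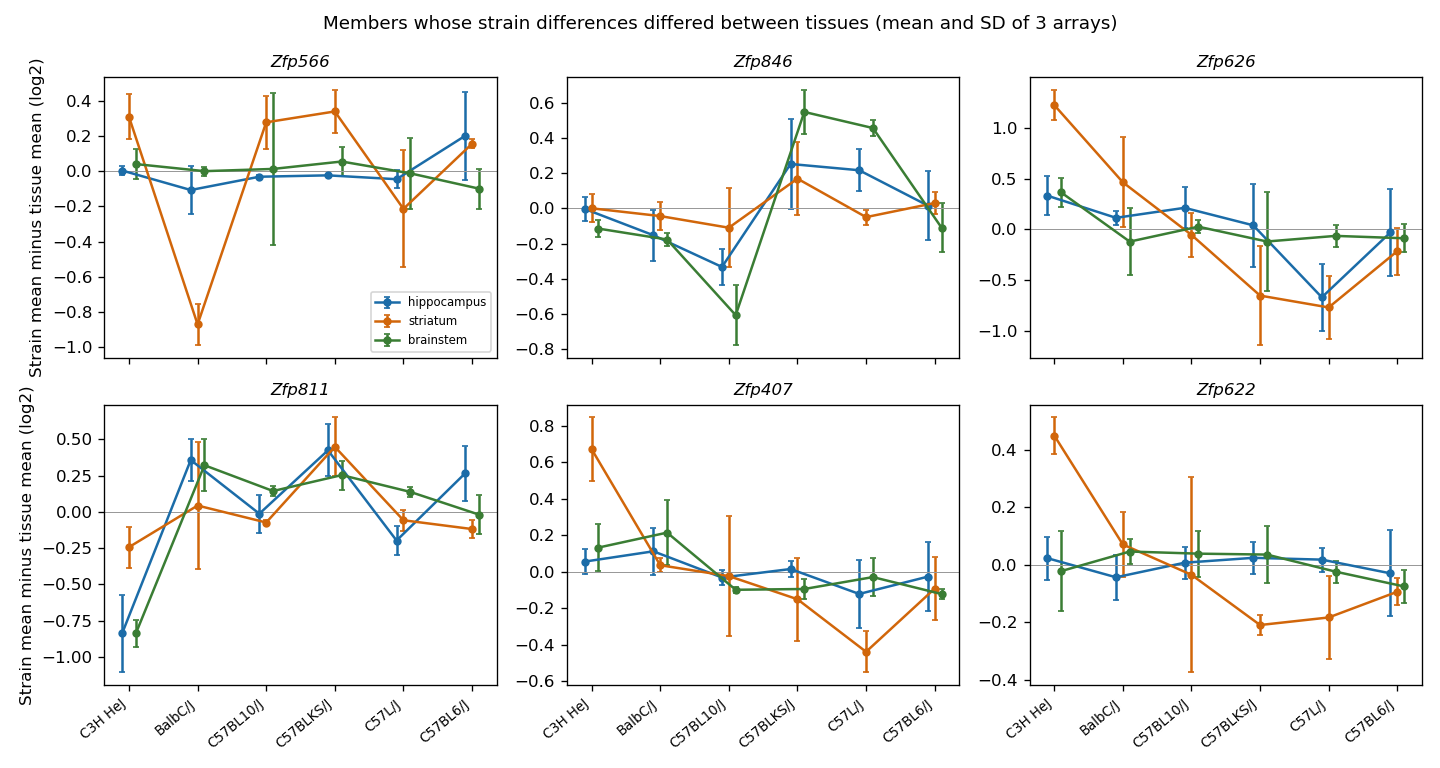
Strain mean minus the mean of the 6 strains in the same tissue (log2; bars are the SD of 3 arrays) for 6 members whose strain differences differed between tissues, by strain and tissue (colour). Zfp566 is low in BalbC/J in striatum, Zfp407 and Zfp622 are high in C3H HeJ in striatum, and Zfp811 has its widest ranges in hippocampus and brainstem.

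No member changed with prepulse inhibition testing at the adjusted threshold. Limma's test of tested against untested arrays called 0 members and 0% of all genes in each tissue. At an unadjusted p under 0.05 there were 6 members in hippocampus (3.96% of all genes), 7 in striatum (3.79%) and 7 in brainstem (2.25%). The smallest of these p-values belonged in hippocampus to Zfp458, with a difference of 0.35 ± 0.11 (SE), followed by Zfp668 (0.35 ± 0.11) and Zfp941 (-0.25 ± 0.09). In striatum it belonged to Zfp758 (0.25 ± 0.09), followed by Zfp687 (0.16 ± 0.07) and Zfp516 (0.25 ± 0.10). In brainstem it belonged to Zfp770 (0.093 ± 0.031), followed by Zfp454 and Zfp934 (0.13 ± 0.05 each).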

How the data were processed

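The authors deposited a log2 value for each Affymetrix probe set and array. They worked, per the submitters' processing notes, in R 2.6.1 with affy 1.16.0, limma 2.12.0, RMA and GCRMA 2.10.0. Which of RMA and GCRMA gave the values is unknown. Per the labels' protocols the lowest RNA integrity number was 7.7. The growth protocol's strain list leaves out C57BL10/J, which the sample labels give. Batches could not be tested, since the labels hold no scan date.

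Limma 3.58.1 in R 4.3.3 was used to fit strain and testing within each tissue, and strain within tissue on all 54 arrays for the tissue comparisons, with an intensity trend. Of 45101 probe sets, 34945 named 1 gene, 932 named several, 9160 were unnamed here and 64 were controls. A further 13 symbols in the number range were named only on probe sets with several genes and were not used. P-values were two-sided and adjusted over all genes tested (12315 in hippocampus, 12320 in striatum, 12484 in brainstem). The number of arrays limits the precision, and the 54 arrays were taken as independent although tissues share mice. All 191 members matched RefSeq by gene ID.

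The members (through the choice of this number range), lists and tests were chosen with earlier results of these data known. Members named are the 12 widest ranges among those called in all 3 tissues, the 5 widest per tissue, the 3 highest and lowest per strain, the 10 smallest interaction p, the 3 smallest testing p and the 3 highest per tissue, the 5 brightest, and the 5 brightest that passed in no tissue. Other members of the chromosome 17 run and of the role lists were named after their values were seen. On simulated data with 200 genes shifted in C3H HeJ, the strain test called 63% of shifts of 0.5 and 95% of shifts of 1 in hippocampus (12315 genes). It called 48% and 87% in striatum (12320 genes) and 61% and 90% in brainstem (12484 genes), with 7, 5 and 15 unshifted genes called.

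Same-numbered arrays of different tissues deviated together weakly if at all. Over 18 pairs the median correlation was 0.010 for hippocampus and striatum, 0.107 for hippocampus and brainstem and -0.013 for striatum and brainstem. In the same order 4, 10 and 2 of the pairs were over 0.1, most often for hippocampus and brainstem. The numbers were not taken to pair samples in the main fits.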

Additional observations from a re-analysis of the deposited data

Results flagged for a closer look

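The differences among the 6 strains differed between the 3 tissues for 20 of 159 members, by limma's interaction test adjusted over 11605 genes, and the 10 members with the smallest adjusted p are given here. Zfp458 had an adjusted p of 6.41e-05, Zfp566 of 8.53e-05, Zfp846 of 0.00146, Zfp760 of 0.00146 and Zfp626 of 0.00507. Zfp811 had 0.00527, Zfp407 and Zfp622 had 0.00547 each, Zfp930 had 0.00558 and Zfp963 had 0.00875. Zfp846 was higher in C57BLKS/J and C57L/J in brainstem, at 7.36 ± 0.13 and 7.27 ± 0.05 (SD, n = 3) against 6.70 ± 0.14 in C57BL6/J, and its striatal strain means spanned 0.28. Zfp811 was lower in C3H HeJ in hippocampus, at 7.27 ± 0.27 against 8.38 ± 0.19 in C57BL6/J, and averaged 4.21 in striatum. Zfp963 was highest in BalbC/J in brainstem, at 5.87 ± 0.26 against 5.15 ± 0.38 in C57BL6/J, and averaged 3.83 in striatum. The 40th percentile of the striatum arrays was 3.12 to 3.29, so Zfp811 and Zfp963 lay low there. The part of such low levels in the differences between tissues was not tested. Zfp930 was highest in C3H HeJ in hippocampus and striatum, at 8.60 ± 0.06 and 8.44 ± 0.12, and its brainstem means spanned 0.23. Groups of 3 arrays are too small to judge an outlying array from its own group alone. Single arrays were instead left out in turn, and the interaction test then called 15 to 26 members. The count was lowest without the first untested BalbC/J hippocampus array and highest without the tested C57L/J striatum array. These counts do not show which of the 10 members stayed under the threshold.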

How the results depend on the processing

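The 23 counts of members called were recomputed under 178 alternatives beside leaving out arrays, and 168 stayed within 1.5 times. In brackets here is the percent of all genes called in the same setting. On the untested arrays alone, 22 members differed in C57BLKS/J hippocampus (7.77%) and 15 in C57L/J striatum (11.3%). In brainstem 23 then passed the strain test (8.65%). The brainstem contrasts gave 14 in C3H HeJ (8.77%), 12 in BalbC/J (4.33%), 0 in C57BL10/J (0.24%), 5 in C57BLKS/J (0.937%) and 4 in C57L/J (1.46%). These fits had 2 arrays per strain. With a 60th percentile filter, which tested 101 members, 13 passed the interaction (21.0%) and 96 the tissue test (97.9%). Leaving out each array in turn gave, for hippocampus, striatum and brainstem in that order, 49 to 65, 40 to 59 and 42 to 66 members by the strain test. In the same order the counts were 18 to 32, 19 to 40 and 19 to 43 for C3H HeJ, and 24 to 36, 16 to 25 and 24 to 46 for BalbC/J. They were 1 to 9, 0 to 1 and 2 to 18 for C57BL10/J, 10 to 26, 4 to 9 and 6 to 18 for C57BLKS/J, and 4 to 14, 3 to 15 and 6 to 12 for C57L/J. The interaction gave 15 to 26, the tissue test 150 to 153 and testing 0 throughout. In a further setting, a replicate block, the array number (tested, untested 1 or untested 2) was a term of the fit within each tissue. The labels do not say that equal numbers link arrays, so this does not check for shared mice or batches. With it the strain test called 55, 50 and 48 members (29.3%, 24.5% and 21.4% of all genes). For the interaction and tissue tests, arrays of the same strain and number in different tissues were taken as correlated, with an estimated correlation of 0.018. The interaction then called 21 (19.1%) and the tissue test 151 (95.7%), and no count moved by over 1.5 times. Signs turned on other probe sets of the same gene. Zfp945 in C57BLKS/J was -0.54 in hippocampus and -1.19 in striatum on the mean of its probe sets, and -3.12 and -4.72 on the second. On the second probe set Zfp467 in C3H HeJ striatum was -0.19, Zfp991 was 0.64 and 1.52 in C3H HeJ and 1.22 and 0.60 in C57L/J striatum and brainstem, Zfp458 in BalbC/J was -0.17 in striatum and -0.072 in brainstem, Zfp790 in BalbC/J brainstem was 0.077, and Zfp846 in C57L/J brainstem was -0.049. The cause was not tested.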
